A study of Homo sapiens with 12 samples.

Results

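The E2F transcription factors and the retinoblastoma (RB) pocket proteins were followed at the RNA level in MNNG/HOS osteosarcoma cells given NXP800. The 10 genes, E2F1, E2F2, E2F3, E2F4, E2F5, E2F7, E2F8, RB1, RBL1 and RBL2, were taken by symbol from tables of 43236 gene symbols. All 10 passed the filter on low counts and belong to the 15979 genes that were tested. The cells (HOS-MNNG in the labels, an established human osteosarcoma line) received either the solvent DMSO or 300 nM NXP800, and RNA was taken after 6 h or 24 h, with 3 libraries in each of the 4 groups. NXP800 is a small molecule from work on blocking HSF1, the transcription factor of the heat shock response. Only 1 cell line was sequenced, and the labels do not say whether the replicates were separate cultures, so the p-values measure the spread between these libraries, which may be technical.

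E2F factors bind promoters of genes for DNA replication and cell division. E2F1, E2F2 and E2F3 are the activators. E2F4 and E2F5 are the canonical repressors, which act together with the pocket proteins RBL1 (p107) and RBL2 (p130), while E2F7 and E2F8 are atypical repressors that bind DNA without a DP partner and without pocket proteins. The pocket protein RB1 holds activator E2Fs in check until cyclin-dependent kinases phosphorylate it, and loss of RB1 function is a known lesion of osteosarcoma. In resting cells RBL1 or RBL2 with E2F4 or E2F5 and the MuvB core forms the DREAM complex, which keeps cell cycle genes silent.

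Each library held 30810614 to 31947656 counts on genes. Read pairs on no annotated gene were 6.66 to 8.14% in the 6 h libraries and 2.73 to 3.67% in the 24 h libraries, and those aligned to several places were 1.86 to 1.99% and 2.96 to 3.37%. Time and library set therefore cannot be told apart, and each NXP800 group was set only against DMSO cells harvested at the same time. Of 10 markers of the mesenchymal and osteoblast lineage, 6 were above 1 CPM (counts scaled to library totals by the TMM method) in every library, whereas COL1A2, SP7, ALPL and BGLAP stayed below 1 CPM throughout. The endothelial markers PECAM1, CDH5 and VWF, the epithelial markers CDH1 and KRT19 and the blood markers PTPRC and HBB also stayed below 1 CPM. The third epithelial marker, EPCAM, was at 5.59 to 7.07 CPM at 6 h, and at 24 h at 5.69 to 5.87 CPM in DMSO and 10.1 to 10.2 CPM in NXP800. The third blood marker, CD68, a lysosomal protein of macrophages, was at 60.9 to 76.6 CPM at 6 h, and at 24 h at 67.2 to 91.3 CPM in DMSO and 119.8 to 154 CPM in NXP800. Both were higher with NXP800 at 24 h without overlap, and their part in the results below was not tested.

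The promoters of several of these genes carry E2F sites themselves, and the stretches just before the start of 5 of the genes are shown because their RNA moved in different directions under NXP800. They are RefSeq sequences of the GRCh38.p14 build, each 120 bases long and ending at the last base before the annotated gene start, 5′ to 3′ on the strand of the gene. Capitals mark a match to one of the E2F sites TTTCGCGC, TTTGGCGC, TTTCCCGC and TTTGGCGG on either strand. They lie at chr20:33686386-33686505 (minus strand) for E2F1, chr1:23531234-23531353 (minus) for E2F2, chr6:20401759-20401878 (plus) for E2F3, chr20:37095998-37096117 (minus) for RBL1 and chr12:77065570-77065689 (minus) for E2F7.
E2F1: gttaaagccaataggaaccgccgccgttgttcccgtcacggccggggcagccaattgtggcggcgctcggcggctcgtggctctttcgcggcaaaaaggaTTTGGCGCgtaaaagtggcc
E2F2: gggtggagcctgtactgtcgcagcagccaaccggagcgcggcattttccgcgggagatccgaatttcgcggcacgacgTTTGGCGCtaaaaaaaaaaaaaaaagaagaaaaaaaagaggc
E2F3: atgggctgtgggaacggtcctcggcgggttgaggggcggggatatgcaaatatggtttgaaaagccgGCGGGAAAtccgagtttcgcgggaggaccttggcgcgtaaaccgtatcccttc
RBL1: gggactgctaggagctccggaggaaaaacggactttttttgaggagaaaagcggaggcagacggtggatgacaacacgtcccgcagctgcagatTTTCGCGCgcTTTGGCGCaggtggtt
E2F7: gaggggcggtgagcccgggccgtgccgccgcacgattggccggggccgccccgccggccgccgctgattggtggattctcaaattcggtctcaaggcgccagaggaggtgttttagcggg

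Promoters of 7 of the 10 genes could be searched, from 250 bases before to 50 bases after the start, and 4 of them held at least 1 of these sites, against 3.43% of all 27305 promoters in the same table. E2F1 held TTTGGCGC from position -20 and E2F2 held it from position -42, both on the strand of the gene. E2F3 held TTTCCCGC on the opposite strand, read as GCGGGAAA from position -53. RBL1 held TTTCGCGC from position -26 and TTTGGCGC from position -16, which do not overlap. No match was found in the windows of E2F4, E2F7 and RBL2. Only the 4 exact E2F sites given above were searched, so sites that differ from them by a letter were neither marked nor counted. The cell cycle homology region TTTGAA, present in 15.4% of all promoters, was found in E2F3 from position -65 and in RBL2 at position 25 after the start. The element TGATGNAAN, bound by C/EBP-ATF dimers and present in 3.67% of all promoters, was found in none of the 7. These matches describe letters and were not measured as bound sites. The genes not located above lie at chr16:67192155-67198918 (E2F4), chr11:19224063-19241655 (E2F8), chr13:48303751-48481890 (RB1) and chr16:53434471-53491648 (RBL2).

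After 6 h of NXP800, 3 of the 10 genes had risen (E2F3, E2F5 and E2F7), 4 had fallen (E2F1, E2F2, E2F4 and E2F8) and the 3 pocket proteins passed the test in neither direction. A gene counts as risen or fallen at an adjusted p below 0.05 in the quasi-likelihood test of edgeR, where p was adjusted over all tested genes after Benjamini and Hochberg. By that rule 52.8% of all genes were called at 6 h, 25.0% as increased and 27.8% as decreased, beside 7 of the 10 genes here. After 24 h, 2 of the 10 had risen (E2F5 and E2F7) and 6 had fallen (E2F1, E2F2, E2F4, E2F8, RB1 and RBL1), against 56.0% of all genes called, 27.5% increased and 28.6% decreased. The same direction was called at both times for 6 genes, and no gene was called in opposite directions in this fit. The share of all genes called alike at both times was not counted. The main fit did not pair libraries of one replicate number. With such libraries blocked together, RB1 was called as risen at 6 h (edgeR adjusted p = 0.0172) and as fallen at 24 h. In that fit RBL1 was also called as fallen at 6 h (edgeR adjusted p = 0.0311). DESeq2 also called RB1 in both directions (adjusted p = 0.0394 at 6 h). The CPM of NXP800 and DMSO libraries did not overlap for 8 of the 10 genes at 6 h and for 8 at 24 h, while such separation was seen for 62.0% and 59.1% of all genes.

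**Figure D1:**
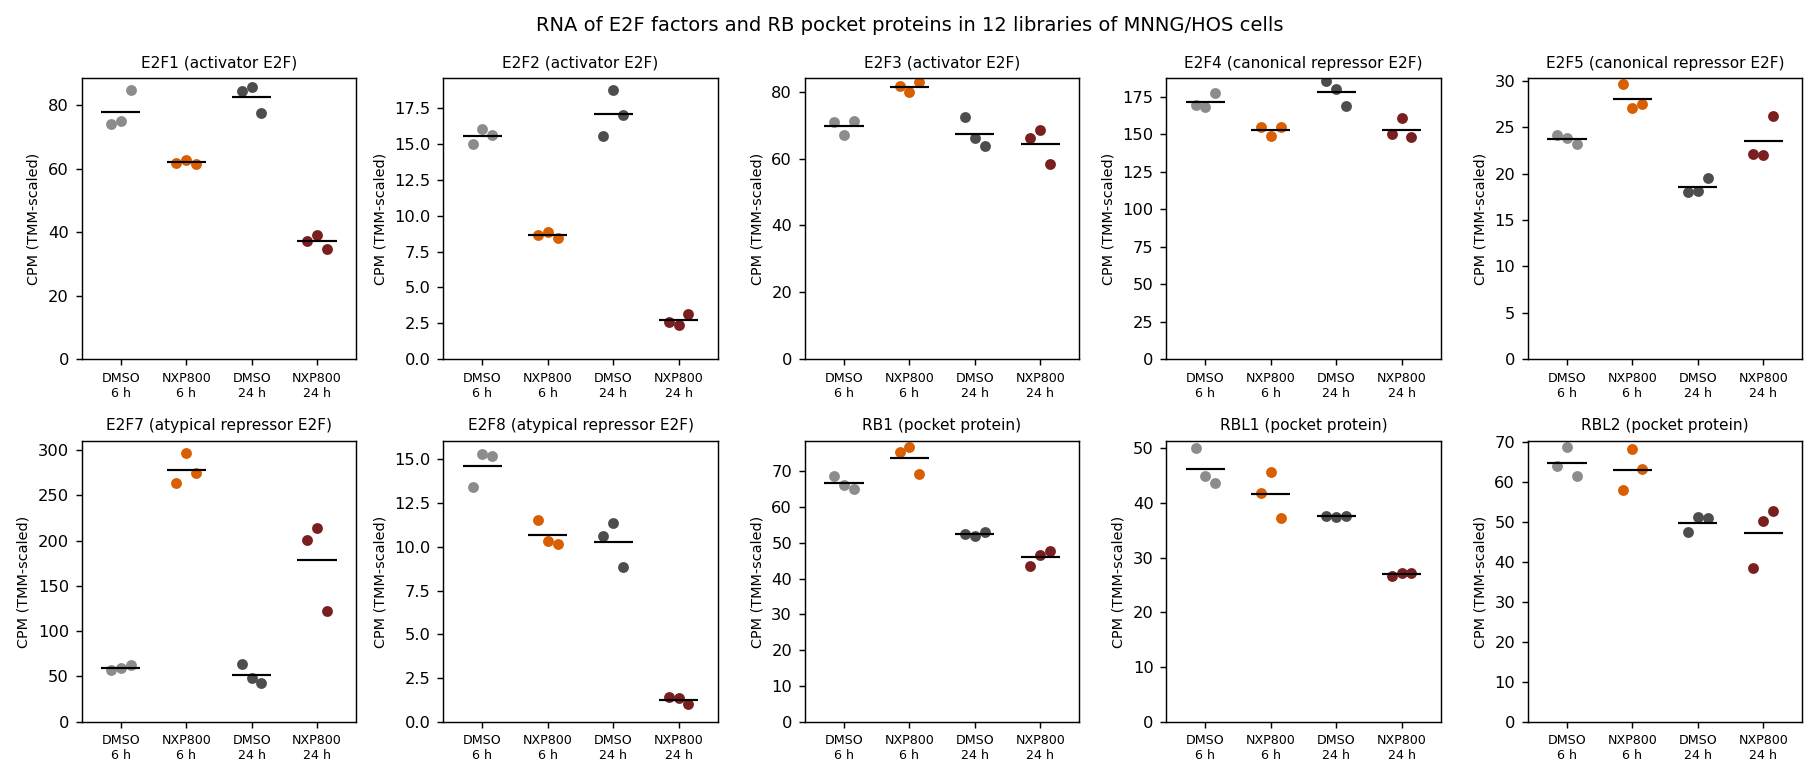
TMM-scaled CPM (y axis, from 0) of the 10 genes in each of the 12 libraries, with 3 points and a bar at the mean for DMSO and NXP800 at 6 h and 24 h. E2F7 lay at 263 to 297 CPM in the NXP800 libraries of 6 h against 56.9 to 62.1 CPM in DMSO, and E2F2 and E2F8 reached their lowest levels in the NXP800 libraries of 24 h.

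E2F1, an activator that drives entry into S phase, fell at both times. Its level at 6 h was 74.3, 75.1 and 85.0 CPM in the DMSO libraries and 61.7, 62.9 and 61.5 CPM in the NXP800 libraries. At 24 h it was 84.6, 86.0 and 77.7 CPM in DMSO and 37.4, 39.1 and 34.8 CPM in NXP800. All NXP800 libraries were below all DMSO libraries of their time, with the wider gap at 24 h. The log2 fold change in edgeR was -0.33 ± 0.068 (SE; adjusted p = 0.000694) at 6 h and -1.16 ± 0.070 (adjusted p = 1.47e-09) at 24 h, which is 0.448 times the DMSO level. In bulk RNA, fewer cells in a phase of the cycle and less RNA per cell cannot be told apart, here and for every gene below.

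E2F2, the second activator and the least abundant E2F per length in DMSO at 6 h, fell further. The DMSO libraries of 6 h had 15.0, 16.0 and 15.6 CPM and the NXP800 libraries 8.69, 8.84 and 8.41 CPM. At 24 h, DMSO libraries had 15.6, 18.8 and 17.0 CPM and NXP800 libraries 2.58, 2.38 and 3.13 CPM, from 76 to 98 counts each. The groups were well apart at both times. On the log2 scale E2F2 changed by -0.85 ± 0.10 (SE; edgeR adjusted p = 3.86e-06) at 6 h and -2.67 ± 0.12 (adjusted p = 6.51e-11) at 24 h, or 0.158 times the DMSO level.

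E2F3, the third activator, did not share this course. At 6 h it was at 71.1, 67.2 and 71.2 CPM in DMSO and at 81.8, 79.9 and 82.7 CPM in NXP800, with no overlap. At 24 h the levels were 72.5, 66.2 and 63.7 CPM in DMSO and 66.2, 68.4 and 58.4 CPM in NXP800, and the groups overlapped. E2F3 rose by 0.22 ± 0.068 on the log2 scale at 6 h (SE; edgeR adjusted p = 0.0116), but the adjusted p was 0.0519 without DMSO replicate 2 of 6 h. At 24 h the value was -0.069 ± 0.069 (adjusted p = 0.414), and its sign turned to 0.022 when only library size was used for scaling.

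The canonical repressors changed little and in opposite directions. E2F4, which pairs with RBL2 in quiescent cells, lay between 168 and 177 CPM in DMSO and between 149 and 155 CPM in NXP800 at 6 h, and between 169 and 185 CPM against 148 and 161 CPM at 24 h. No NXP800 library reached the DMSO range at either time. E2F4 fell by 0.17 ± 0.058 on the log2 scale at 6 h (SE; edgeR adjusted p = 0.0222) and by 0.22 ± 0.058 at 24 h (adjusted p = 0.00445). The call at 6 h was lost without DMSO replicate 3 of 6 h (adjusted p = 0.0852) or NXP800 replicate 2 of 6 h (adjusted p = 0.0862), and both calls were lost under scaling by library size alone (adjusted p = 0.0604 at 6 h and 0.107 at 24 h).

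E2F5, the other pocket-dependent repressor, rose. Its DMSO libraries had 24.2, 23.8 and 23.2 CPM at 6 h and its NXP800 libraries 29.7, 27.0 and 27.5 CPM. At 24 h the values were 18.0, 18.1 and 19.5 CPM in DMSO and 22.2, 22.0 and 26.3 CPM in NXP800, again without overlap. E2F5 rose on the log2 scale by 0.24 ± 0.081 (SE; edgeR adjusted p = 0.0194) at 6 h and 0.34 ± 0.083 (adjusted p = 0.00226) at 24 h. At 6 h the adjusted p was 0.0584 without DMSO replicate 3 and 0.0888 without NXP800 replicate 1. Of the exon bases of E2F5, 18.8% overlap exons of RBIS or another gene on the opposite strand, and since the strand setting of the counting is not given in the sources used here, its counts are uncertain to that extent.

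The atypical repressors E2F7 and E2F8, which often act as a pair, moved apart. E2F7 was at 56.9, 59.1 and 62.1 CPM in the DMSO libraries of 6 h and at 263, 297 and 274 CPM in the NXP800 libraries. At 24 h it was at 64.0, 48.0 and 43.1 CPM in DMSO and at 201, 214 and 122 CPM in NXP800. The lowest NXP800 library, replicate 3 of 24 h, was still above every DMSO library. E2F7 had a log2 fold change of 2.23 ± 0.17 (SE; edgeR adjusted p = 2.4e-08), or 4.68-fold, at 6 h and 1.79 ± 0.17 (adjusted p = 1.81e-07), or 3.46-fold, at 24 h. It ranged from 1.67 to 2.00 at 24 h when single libraries were left out.

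E2F8 was at 13.4, 15.3 and 15.2 CPM in the DMSO libraries of 6 h and at 11.5, 10.3 and 10.1 CPM in the NXP800 libraries. At 24 h the levels were 10.6, 11.3 and 8.86 CPM in DMSO and 1.42, 1.38 and 0.989 CPM in NXP800, the latter from 31 to 44 counts a library. NXP800 libraries were lower at both times without overlap, by a narrow margin at 6 h and by a wide one at 24 h. In log2 terms E2F8 changed by -0.46 ± 0.12 (SE; edgeR adjusted p = 0.00344) at 6 h and -3.02 ± 0.15 (adjusted p = 2.13e-10) at 24 h. The remaining level at 24 h was 0.123 times that of DMSO, the lowest such fraction among the 10 genes.

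The pocket proteins changed less than the activators E2F1 and E2F2. RB1, the retinoblastoma tumour suppressor, was at 68.8, 66.1 and 65.2 CPM in DMSO and at 75.5, 76.8 and 69.3 CPM in NXP800 at 6 h. At 24 h it was at 52.6, 52.0 and 53.1 CPM in DMSO and at 43.6, 46.7 and 47.8 CPM in NXP800. The groups did not overlap at either time, with NXP800 above at 6 h and below at 24 h. At 6 h its log2 fold change was 0.15 ± 0.061 (SE; edgeR adjusted p = 0.0536, unadjusted p = 0.0286), and over the 19 alternatives the adjusted p lay between 0.0166 and 0.178. DESeq2 gave an adjusted p of 0.0394, it was 0.027 without NXP800 replicate 3 of 6 h, and when libraries of one number were blocked together (the replicate block) the same 0.15 had an adjusted p of 0.0172. RB1 fell by 0.19 ± 0.062 at 24 h (adjusted p = 0.016), a call that was lost without NXP800 replicate 1 of 24 h (adjusted p = 0.0715) and under scaling by library size alone (adjusted p = 0.211).

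RBL1 was at 50.1, 44.9 and 43.7 CPM in DMSO and at 41.7, 45.7 and 37.3 CPM in NXP800 at 6 h, and the groups overlapped. At 24 h it was at 37.6, 37.4 and 37.7 CPM in DMSO and at 26.7, 27.2 and 27.2 CPM in NXP800, with little spread inside either group. The log2 fold change was -0.15 ± 0.076 (SE; edgeR adjusted p = 0.104) at 6 h and -0.47 ± 0.078 (adjusted p = 8.16e-05) at 24 h. At 6 h the adjusted p was 0.0311 with the replicate block and 0.0313 without NXP800 replicate 2.

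RBL2, the pocket protein that prevails in resting cells, passed the test at neither time. Its levels were 64.0, 68.8 and 61.5 CPM in DMSO and 57.9, 68.3 and 63.3 CPM in NXP800 at 6 h, and 47.6, 51.2 and 51.0 CPM against 38.6, 50.4 and 52.7 CPM at 24 h. The groups overlapped at both times, and NXP800 replicate 1 was the lowest library at each. The log2 fold change was -0.036 ± 0.096 (SE; edgeR adjusted p = 0.773) at 6 h and -0.078 ± 0.098 (adjusted p = 0.517) at 24 h, and the sign turned to 0.023 at 6 h and 0.048 at 24 h without NXP800 replicate 1 of that time. It also turned to 0.0089 at 6 h without DMSO replicate 2 and to 0.016 at 24 h under scaling by library size alone. Exons of AKTIP or another gene on the opposite strand cover 16.4% of the exon bases of RBL2.

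**Figure D2:**
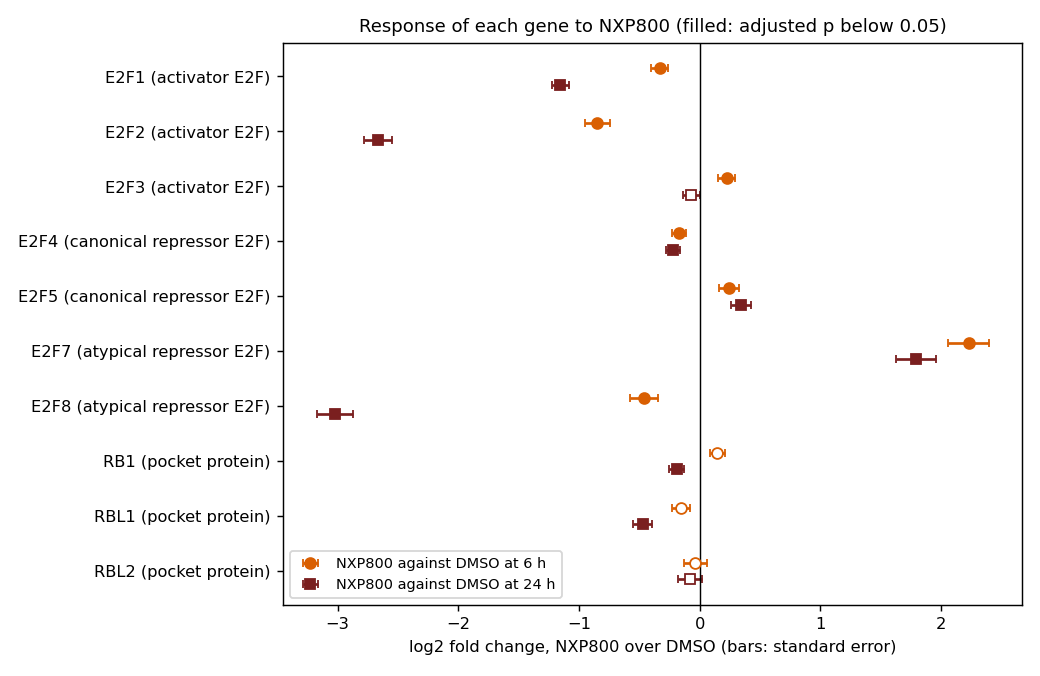
Log2 fold change of NXP800 over DMSO (x axis) with its standard error for each gene, at 6 h (circles) and 24 h (squares), ordered by role; filled symbols passed the test. E2F7 stands at 2.23 and 1.79, E2F2 and E2F8 move from -0.85 and -0.46 at 6 h to -2.67 and -3.02 at 24 h.

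Whether a response differed between the times was tested as the 24 h response minus the 6 h response. This difference passed for 6 of the 10 genes, all downward, against 25.8% of all genes in either direction and 13.8% downward. In edgeR it was -0.82 ± 0.098 for E2F1 (SE; adjusted p = 1.95e-05). It was -1.82 ± 0.15 for E2F2 (edgeR adjusted p = 1.03e-06) and -2.56 ± 0.19 for E2F8 (edgeR adjusted p = 3.52e-07). E2F1, E2F2 and E2F8 had fallen further at 24 h than at 6 h, relative to the DMSO libraries of each time.

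The differences of RB1 (-0.34 ± 0.087, edgeR adjusted p = 0.00981), RBL1 (-0.32 ± 0.11, adjusted p = 0.0407) and E2F3 (-0.29 ± 0.097, adjusted p = 0.0359) were smaller. The difference of E2F3 missed the threshold in 11 of 18 alternatives, including when any 1 library other than DMSO replicate 3 or NXP800 replicate 1 or 2 of 24 h was left out (edgeR adjusted p = 0.051 to 0.0949). That of RBL1 missed it in 12 of 18, including without any 1 library other than DMSO replicate 1 or NXP800 replicate 3 of 6 h (edgeR adjusted p = 0.0511 to 0.117). For E2F7 the difference was -0.44 ± 0.23 (edgeR adjusted p = 0.179), and with the replicate block it was -0.45 with an adjusted p of 0.00484. It also passed with no filter on low counts (edgeR adjusted p = 0.00147), and it ranged from -0.59 to -0.22 with single libraries left out, moving to -0.22 without NXP800 replicate 3 and to -0.25 without DMSO replicate 1 of 24 h. E2F4, E2F5 and RBL2 had differences of -0.049, 0.10 and -0.042, with adjusted p between 0.573 and 0.861 in edgeR. With single libraries left out, that of E2F4 ranged from -0.090 to -0.020, that of E2F5 from 0.012 to 0.14 and that of RBL2 from -0.13 to 0.084. Under scaling by library size alone those of E2F4 and RBL2 turned to 0.025 and 0.034.

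Compared as classes, the activators had median values of -0.33 (6 h) and -1.16 (24 h) on the log2 scale, while the 4 repressor E2Fs had medians of 0.036 and 0.062. The median of all tested genes was -0.046 and -0.0033. The activators spanned -0.85 (E2F2) to 0.22 (E2F3) at 6 h and -2.67 (E2F2) to -0.069 (E2F3) at 24 h, and their median was the value of E2F1. The repressor class was the wider, spanning -0.46 to 2.23 at 6 h and -3.02 to 1.79 at 24 h, since it held both the largest rise and the largest fall among the 10 genes at 24 h. The pocket proteins had medians of -0.036 and -0.19. These summaries describe the listed genes and were given no test.

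Levels of different genes were compared after division by the length of merged exons (CPM per kb). E2F4 was the most abundant of the 10 in DMSO, with 47.7 ± 1.4 CPM per kb at 6 h and 49.5 ± 2.4 at 24 h (SD, n = 3), followed by E2F1 with 29.0 ± 2.2 and 30.8 ± 1.7 and by E2F3 with 13.5 ± 0.44 and 13.0 ± 0.87 CPM per kb. None of these neighbours overlapped in either DMSO group. E2F7 came next after RB1 at 6 h, with 9.44 ± 0.41 CPM per kb, and in DMSO at 24 h it could not be separated from RB1, since their libraries overlapped at means of 8.22 and 8.17 CPM per kb. The lowest places belonged to E2F5, E2F8 and E2F2, between 2.85 and 3.96 CPM per kb at 6 h and between 2.49 and 3.14 CPM per kb at 24 h, where E2F2 and E2F5 overlapped. RBL1 and RBL2 overlapped in both DMSO groups, at means between 6.15 and 7.99 CPM per kb.

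With NXP800 the order changed. At 6 h E2F7 reached 44.2 ± 2.8 CPM per kb and overlapped E2F4 at 42.5 ± 0.94 CPM per kb (SD, n = 3), and both were above E2F1 at 23.1 ± 0.27. At 24 h E2F4 led with 42.5 ± 1.9 CPM per kb, E2F7 followed with 28.5 ± 7.9, and E2F1 and E2F3 overlapped at 13.8 ± 0.80 and 12.4 ± 1.0 CPM per kb. E2F2 and E2F8 were last, at 0.493 ± 0.071 and 0.306 ± 0.058 CPM per kb.

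Parts of this order depend on the length used. By the longest transcript, E2F4 stood above E2F7 in NXP800 at 6 h, at means of 58.4 and 48.6 CPM per kb. RB1 and E2F3 were then next to each other in DMSO at 6 h, at 13.99 and 13.86 CPM per kb, and RB1 stood above E2F7 in DMSO at 24 h, at 11.02 and 9.03. RBL2 then stood above RBL1 in DMSO, at 10.2 and 8.13 CPM per kb at 6 h and at 7.89 and 6.60 at 24 h.

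The summed level of the 3 activators over that of the 4 repressors, in CPM per kb, was 0.695, 0.686 and 0.721 in the DMSO libraries of 6 h and 0.436, 0.423 and 0.431 in the NXP800 libraries. At 24 h the ratio was 0.718, 0.760 and 0.749 in DMSO and 0.349, 0.341 and 0.380 in NXP800. Every NXP800 library was below every DMSO library. At 6 h the activator sum was 43.8 to 48.2 CPM per kb in DMSO and 40.3 to 40.4 in NXP800, while the repressor sum was 63.4 to 66.8 and 92.5 to 95.6 CPM per kb. Of the 4 repressors, E2F7 went from a mean of 9.44 CPM per kb in DMSO to 44.2 in NXP800 at 6 h. E2F4 went from 47.7 to 42.5, E2F5 from 3.96 to 4.68 and E2F8 from 3.54 to 2.58 CPM per kb. The lower ratio at 6 h therefore rests largely on E2F7, and a ratio without E2F7 was not computed. At 24 h the activator sum was 44.3 to 48.3 CPM per kb in DMSO and 24.8 to 28.2 in NXP800, and the repressor sums of 59.1 to 67.3 and 65.2 to 82.7 CPM per kb overlapped.

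E2F7 alone made up 8.42 to 8.73% of the summed CPM per kb of the 7 E2F genes in the DMSO libraries of 6 h and 31.5 to 34.7% in the NXP800 libraries. At 24 h its share was 6.62 to 8.80% in DMSO and 21.5 to 30.7% in NXP800. The ratio of E2F7 to E2F8 per kb was 2.53 to 2.79 in DMSO and 15.0 to 18.9 in NXP800 at 6 h. At 24 h it was 2.79 to 3.95 in DMSO and 81.1 to 101.9 in NXP800. The ratio was higher in every NXP800 library than in any DMSO library.

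**Figure D3:**
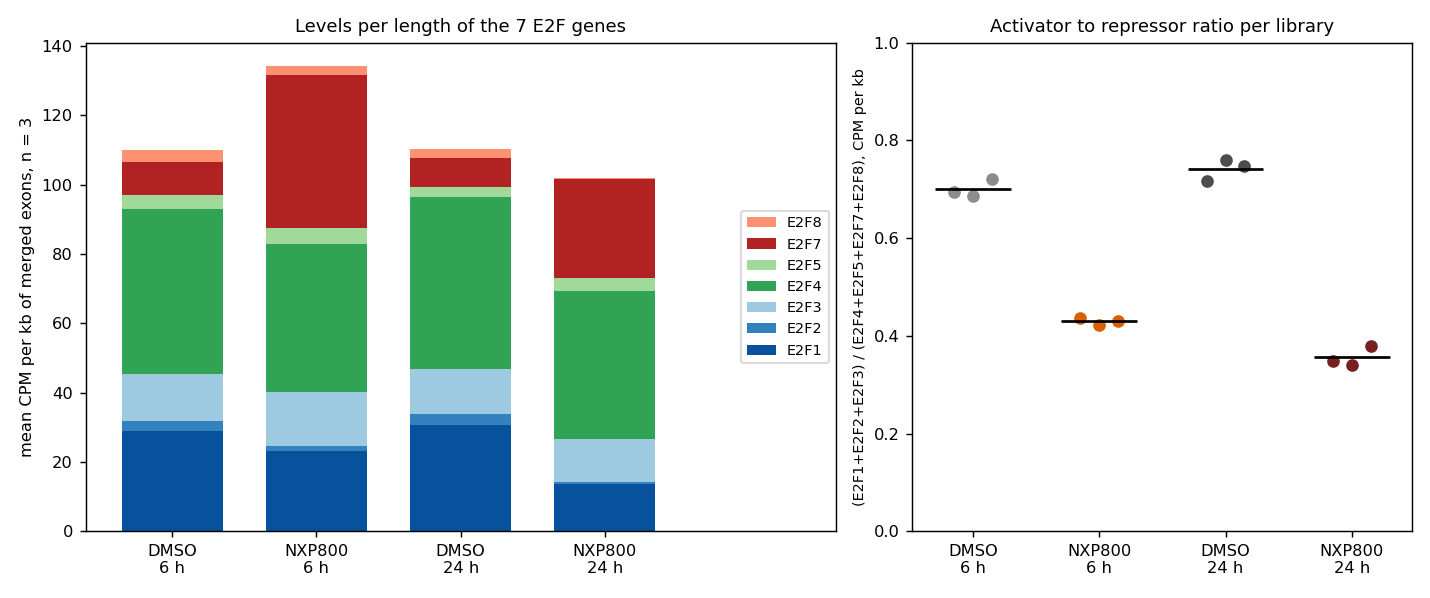
Left, mean CPM per kb of merged exons (y axis, n = 3) of the 7 E2F genes stacked by group. Right, the ratio of summed activator to summed repressor levels in each of the 12 libraries, with bars at the mean. E2F7 (red) fills 31.5 to 34.7% of the stack in NXP800 at 6 h, and the ratio lies between 0.341 and 0.436 in NXP800 against 0.686 to 0.760 in DMSO.

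Among the partners of these factors, 3 could be tested and only TFDP1 passed, beside 52.8% of all genes called at 6 h and 56.0% at 24 h. TFDP1, the main DP subunit with which E2F1 to E2F5 bind DNA, fell by 0.73 ± 0.054 on the log2 scale at 6 h (SE; edgeR adjusted p = 1.86e-08) and by 0.92 ± 0.054 at 24 h (adjusted p = 1.06e-09). The other DP subunit TFDP2 had values of 0.074 and -0.025, and E2F6, a repressor that does not bind pocket proteins, had 0.061 and 0.18 (adjusted p between 0.0661 and 0.792). TFDP3 had 0 counts in all 12 libraries, which allows up to 3 counts or 0.0974 CPM in the shallowest library, by counting error only. With the replicate block, and without NXP800 replicate 3 of 24 h, 1 of these partners rose at 24 h.

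The MuvB core joins E2F4 and a pocket protein in DREAM, and MYBL2 or FOXM1 in dividing cells. Of 8 listed genes of the core and its partners, 2 rose and 3 fell at 6 h, and 2 rose and 5 fell at 24 h. Of all genes, 25.0% rose and 27.8% fell at 6 h, and 27.5% and 28.6% at 24 h. RBBP4, a histone-binding core subunit, fell by 0.81 ± 0.060 at 6 h (log2, SE; edgeR adjusted p = 1.9e-08) and by 0.42 ± 0.059 at 24 h (adjusted p = 1.51e-05). The core subunits LIN52 and LIN54 fell at 24 h, each by 0.28 (edgeR adjusted p = 0.00702 and 0.00637). LIN37, a core subunit, rose by 1.23 ± 0.15 (log2, SE; edgeR adjusted p = 3.47e-06) at 6 h and 1.05 ± 0.14 (adjusted p = 1.06e-05) at 24 h. DYRK1A, the kinase that promotes DREAM assembly, rose by 0.54 and 0.29. MYBL2 fell by 0.33 at 6 h and by 1.64 ± 0.075 at 24 h (edgeR adjusted p = 9.28e-11), and FOXM1 fell by 0.47 and 1.24.

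Of 12 corepressors that bind RB proteins, 2 rose and 5 fell at 6 h, and 1 rose and 6 fell at 24 h, shares of called genes near the 52.8% and 56.0% of all genes. HDAC1 fell by 0.60 and 0.54 on the log2 scale and the histone methyltransferase SUV39H1 by 0.45 and 0.70 (all edgeR adjusted p at most 1.22e-05), whereas HDAC2 rose by 0.15 at 6 h (adjusted p = 0.0488) and by 0.36 at 24 h (adjusted p = 0.00011). The number that rose at 6 h was 1 without DMSO replicate 3 or NXP800 replicate 1 or 2 of 6 h, or DMSO replicate 1 or 3 or NXP800 replicate 3 of 24 h. The number that rose at 24 h was 3 with the replicate block or without NXP800 replicate 3 of 24 h, and 2 without DMSO replicate 1 of 24 h.

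Upstream of the pocket proteins, 12 of 13 listed kinases and cyclins could be tested, of which 4 rose and 6 fell at 6 h, and 3 rose and 7 fell at 24 h, beside 52.8% and 56.0% of all genes called in either direction. CDK6, a D-cyclin kinase, rose by 0.88 ± 0.062 (SE; edgeR adjusted p = 1.21e-08) at 6 h. At 24 h its value was -0.081 (adjusted p = 0.284), and the difference of -0.96 passed (adjusted p = 2.12e-06). CDK4, the other D-cyclin kinase, had a value of -0.14 at 6 h (edgeR adjusted p = 0.0777) and fell by 0.21 at 24 h (adjusted p = 0.00833). The cyclins CCND3, CCNE1 and CCNE2 had fold changes of -0.87, -0.86 and -0.91 on the log2 scale at 6 h, and at 24 h CCND3 fell by 1.65 and CCNA2 fell by 1.46 (edgeR adjusted p at most 1.51e-05). CCND1 fell by 0.50 at 6 h (edgeR adjusted p = 7.62e-05), with a value of 0.054 at 24 h (adjusted p = 0.59). CCND2 rose by 3.50 ± 0.34 and 4.50 ± 0.41 (SE; edgeR adjusted p = 4.19e-07 and 1.47e-07), the largest rises of the list. Its levels were low, at 0.182 to 0.315 CPM in DMSO and 2.08 to 3.25 CPM in NXP800 at 6 h. At 24 h they were 0 to 0.167 CPM in DMSO, from 0 to 5 counts a library, and 2.18 to 2.66 CPM in NXP800. The size of the rise at 24 h is therefore uncertain. CDK7 and CCNH, subunits of the CDK-activating kinase, rose at both times, by 0.80 and 0.42 at 6 h and by 0.44 and 0.26 at 24 h.

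Of 7 CDK inhibitors, 5 could be tested, with 2 increased and 1 decreased at 6 h, and 2 increased and 2 decreased at 24 h, beside 52.8% and 56.0% of all genes called in either direction. CDKN1A (p21) had 39.1 to 43.4 CPM in DMSO and 165 to 198 CPM in NXP800 at 6 h, and 14.1 to 18.1 against 45.4 to 63.1 CPM at 24 h. Its log2 fold changes were 2.17 ± 0.11 (SE; edgeR adjusted p = 4.22e-10) and 1.72 ± 0.12 (adjusted p = 5.28e-09), beside 2.23 and 1.79 for E2F7. CDKN2C (p18) fell by 2.18 and 3.46. CDKN1B (p27) rose by 0.44 at 6 h (edgeR adjusted p = 0.000154) but had a value of -0.037 at 24 h (adjusted p = 0.708). The other inhibitor that rose at 24 h was CDKN1C, by 0.97 ± 0.28 (SE; edgeR adjusted p = 0.00693), with only 23 to 39 counts a library in NXP800. CDKN2A and CDKN2B, which encode the INK4 inhibitors p16 and p15, had 0 counts in all 12 libraries, with the limit given for TFDP3. The number of inhibitors that fell at 6 h was 2 with the replicate block or without NXP800 replicate 3 of 6 h.

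Genes that E2F factors are known to control fell in large part. Of 40 listed targets of the G1/S transition, 30 fell, 1 rose and 9 passed in neither direction at 6 h, with a median log2 fold change of -0.46, while 27.8% of all genes fell. At 24 h 38 fell, against 28.6% of all genes, with a median of -0.81, and all 40 values were below 0, the highest being -0.012. The origin subunit ORC1 (-1.41 ± 0.091) and the replicative helicase subunit GINS1 (-1.04 ± 0.084) led at 6 h, while EZH2 rose by 0.34 ± 0.072 (SE; edgeR adjusted p = 0.000802). The nucleotide synthesis enzymes TK1 (-2.23 ± 0.093) and TYMS (-1.87 ± 0.068) led at 24 h (SE; edgeR adjusted p at most 4.09e-11). The 24 h response was the lower one for 28 of the 40 by the test of the difference, which 13.8% of all genes passed downward.

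Of 24 listed targets of DREAM and MuvB in the G2/M transition, 12 fell and 2 rose at 6 h, with a median of -0.18, against 27.8% of all genes fallen and 25.0% risen. At 24 h all 24 fell, against 28.6% of all genes, with a median of -1.26 and a range from -2.30 to -0.90, and the difference between times passed downward for all 24, against 13.8% of all genes. KIF20A, a mitotic kinesin, fell by 0.73 ± 0.084 at 6 h and by 2.30 ± 0.089 at 24 h (SE; edgeR adjusted p = 2.48e-06 and 2.18e-11), and MKI67 and BIRC5 fell by 1.73 and 1.62 at 24 h. UBE2C and TPX2 were the 2 that rose at 6 h, by 0.21 and 0.18 (edgeR adjusted p = 0.0311 and 0.0441), and neither passed when DMSO replicate 2 or 3 or NXP800 replicate 1 or 3 of 6 h was left out. Without DMSO replicate 1 of 6 h, or DMSO replicate 1 or 2 of 24 h, 1 G2/M target rose at 6 h. These lists share some genes with one another and were chosen with earlier results of these data known.

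**Figure D4:**
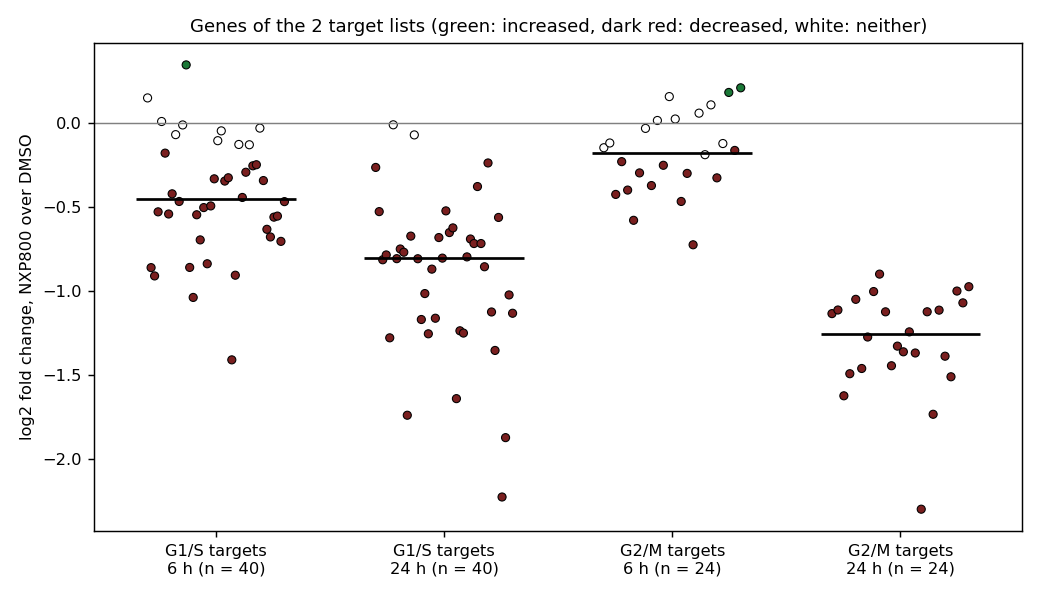
Log2 fold change of NXP800 over DMSO (y axis) for each gene of the G1/S list (n = 40) and the G2/M list (n = 24) at 6 h and 24 h, coloured by the test, with bars at the median. The G2/M median moves from -0.18 to -1.26, where all 24 genes fell, and the G1/S median from -0.46 to -0.81.

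Listed E2F targets outside the cell cycle were called in both directions. Of 9 listed genes, 3 rose and 2 fell at 6 h, and 4 rose and 2 fell at 24 h, shares of called genes near the 52.8% and 56.0% of all genes. BBC3 (PUMA) rose by 2.37 ± 0.14 and 1.55 ± 0.13, and PMAIP1 (NOXA) rose by 2.27 ± 0.078 and 1.23 ± 0.080 (SE; edgeR adjusted p at most 5.79e-08). Both encode proteins that promote apoptosis. The autophagy kinase gene ULK1 rose by 1.73 ± 0.11 at 6 h. At 24 h its value was 0.23 (edgeR adjusted p = 0.0713), and the difference of -1.50 passed (adjusted p = 3.66e-06). TP73 had values of -1.46 ± 0.25 and -0.99 ± 0.23, and APAF1, of the apoptosome, fell by 0.52 and 0.88 (edgeR adjusted p at most 0.00168).

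The genes whose log2 CPM most resembled that of each of the 10 over the 12 libraries were sought among 11885 genes by Pearson r, as a description that group differences and library sets dominate. E2F1 was most like CDCA5 (r = 0.987), NCAPH (0.986) and KIF20A (0.986), which act in mitosis, and E2F8 was most like DLGAP5 (0.992), ATAD2 (0.991) and CDC45 (0.991). E2F7 was most like THBD (0.992), SGTB (0.990) and CSRNP2 (0.990), none of them in the lists above. E2F2 was most like SORL1 (0.994), TM4SF1 (0.994) and ENPP1 (0.993). For the other genes the closest were MICAL3 for E2F3 (0.969), MRGBP for E2F4 (0.962), GLRX2 for E2F5 (0.976), SRSF10 for RB1 (0.988), RBBP7 for RBL1 (0.984) and IFT81 for RBL2 (0.946).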

How the data were processed

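Poly(A) RNA of 12 libraries (stranded kit) was analysed. The deposited files hold raw counts per gene symbol, which the authors made with no normalization; per the submitters' processing notes the tools were fastp 0.20.1, STAR 2.7.5a and HTSeq 0.12.4, with hg38 and the RefSeq annotation of GRCh38.p14. The strand setting is not given in the sources used here. Rows of the counter for reads without a gene were removed before any step, namely no-feature (2.73 to 8.14% of a library), ambiguous (2.10 to 2.43%) and multi-mapped reads (1.86 to 3.37%). Replicates differed by more than sampling noise (7.36 to 26.3 as chi-square over its degrees of freedom).

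Tests were run with edgeR 4.0.16 and limma 3.58.1 under R 4.3.3 (TMM, filterByExpr, quasi-likelihood test, 1 model of the 4 groups, common dispersion 0.00723, adjusted p below 0.05 over 15979 genes), after a test on simulated data. The labels number the replicates alike in each group without saying what a number marks. Deviations from the group means correlated between same-numbered DMSO and NXP800 libraries at r = 0.349 to 0.526 over genes, and at most at 0.0225 between other numbers. The numbers were therefore taken to pair the libraries. The main fit left this pairing out of its standard errors and p-values, and a fit with this block was an alternative. The other alternatives were DESeq2 1.42.0, other scalings, filters, thresholds and fitted libraries, each library left out, and another length. Lengths and exon overlaps came from GENCODE models, which may not be the ones used for counting. Promoter entries not at the annotated start (RB1) and sequence on E2F5's chromosome were not used.

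Named were the 10 genes, E2F6, TFDP1 and TFDP2, called genes with the 3 largest rises and falls of each list where log2 CPM averaged 1 or more, and the 3 genes most like each of the 10; of these the text gives a selection. CDKN2A, CDKN2B, CDKN1C, CCND1, CCND2, CDK4, TFDP3, LIN52 and LIN54 were named after their values were seen. The genes and lists were chosen with earlier results of these data known. Counting intervals and floors cover counting error only.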

Additional observations from a re-analysis of the deposited data

Results flagged for a closer look

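The response to NXP800 differed between 6 h and 24 h for 6 of the 10 genes by the test of the difference itself (24 h minus 6 h, edgeR, 3 libraries in each of the 4 groups). The difference was -0.82 for E2F1, -1.82 for E2F2 and -2.56 for E2F8 on the log2 scale, and these calls held in all 18 alternatives. RB1 had a difference of -0.34, which also held in all 18. For E2F3 the difference was -0.29 and the call held in 7 of 18 alternatives. For RBL1 it was -0.32 and the call held in 6 of 18. Since the 6 h and 24 h libraries also differ as sets, time and library set cannot be told apart in these differences.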

How the results depend on the processing

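The calls of E2F1, E2F2, E2F7 and E2F8 at both times, and of E2F5 and RBL1 at 24 h, kept their direction and side of the threshold in all 19 alternatives. Scaling by library size alone turned E2F3 at 24 h to 0.022, RBL2 at 24 h to 0.016, and the differences of E2F4 and RBL2 to 0.025 and 0.034, and moved the activator median at 24 h to -1.07. With single libraries left out, RBL2 ranged from -0.094 to 0.023 at 6 h, from -0.16 to 0.048 at 24 h and from -0.13 to 0.084 in the difference, and the activator median at 6 h from -0.37 to -0.27. At an adjusted p below 0.01, 1 of the 10 genes rose at 6 h, no G2/M target (0) rose at 6 h, and 2236 of all genes differed between times against 4129. G1/S targets that rose at 6 h numbered 2 in the fit of the 6 libraries of that time, and G2/M targets that rose at 6 h numbered 1 with no filter and 0 to 2 with single libraries left out. G1/S targets whose difference was upward numbered 0 to 1 with single libraries left out. By the longest transcript the activator to repressor ratio was 0.542 and 0.355 at 6 h and 0.569 and 0.287 at 24 h (DMSO and NXP800).

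With the replicate block, which pairs libraries by number, RB1 and RBL1 passed at 6 h and E2F7 passed in the difference (adjusted p = 0.0172, 0.0311 and 0.00484). In this paired fit 6284 of all genes differed between times, 2 G1/S targets rose at 6 h and 1 had an upward difference, and no other call among the 10 genes changed. RB1 at 6 h, just outside the threshold, passed in 10 of 19 alternatives, and RB1 at 24 h missed it in 4 of 19. The cause of these changes was not tested. Depth limits mainly E2F8 and E2F2 at 24 h, with 31 to 98 counts a library in NXP800.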
